A study of Drosophila melanogaster with 4 samples.

Results

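The genes described here move fat between organs and in and out of storage in the Drosophila melanogaster larva. They were chosen by name, as the lipophorin transport genes apolpp, Apoltp and Mtp, the lipophorin receptors LpR1 and LpR2, the lipid droplet proteins Lsd-1 and Lsd-2, and the lipases bmm and Hsl. Of these 9 genes, 8 had a probe set of their own on the array, 9 probe sets in all, out of 11981 genes so represented. Hsl had none and was not analysed here. All 9 probe sets passed the filter on low signals.

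Whole third-instar larvae raised at 25 °C were profiled on 1-colour Affymetrix arrays. In the Gyc76C larvae (C564-Gal4; UAS-Gyc76C) the C564-Gal4 driver switched on Gyc76C, a receptor-type guanylate cyclase; per the labels, overexpression was in the fat body. In the GFP larvae (C564-Gal4; UAS-GFP) the same driver switched on a GFP transgene, so both genotypes carried the driver. There were 2 arrays for each genotype, labelled as biological replicas, and p-values measure only the spread between these arrays.

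Insects carry dietary and stored fat through the hemolymph, the circulating fluid, on lipophorin, a lipoprotein made in the fat body. The apolpp product is its main protein, Mtp loads lipid onto the nascent particle, and Apoltp is the protein of a lipid transfer particle that moves lipid between the gut and lipophorin. Inside fat body cells triglyceride lies in droplets coated by the perilipins Lsd-1 and Lsd-2, and the lipases bmm and Hsl release it.

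Gyc76C itself was read through its brightest probe set, also annotated to CG42637, with signals of 16050 and 20993 in Gyc76C larvae, against 1047 and 928 in GFP larvae. That was 18.6-fold higher (limma adjusted p = 5.79e-05), in the direction of the labels. The other 2 probe sets with this annotation were dim and went the other way. One had 9.42 and 30.6 in Gyc76C larvae against 91.9 and 64.9 in GFP larvae (log2 fold change -2.19, adjusted p = 0.0951), and the other, too dim to be tested, had 2.43 and 4.69 against 17.0 and 14.6. Replicate arrays correlated at 0.968 in Gyc76C and 0.966 in GFP larvae, and arrays of different genotype at 0.88 to 0.91. The ratio of 3′ to 5′ signal, a sign of RNA quality, was 3.12 and 3.61 for eIF-4a in Gyc76C larvae and 4.04 and 4.06 in GFP larvae. For actin it was 1.08 on both Gyc76C arrays, against 1.18 and 1.2 on the GFP arrays. For GAPDH it was 1.64 and 1.85 in Gyc76C and 1.82 and 2.0 in GFP larvae, where the genotypes overlapped.

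Setting Gyc76C against GFP larvae addresses how overexpression of the cyclase goes with transcript levels. Among the lipid transport and storage genes, the transfer particle gene Apoltp rose 4.86-fold and the droplet perilipin Lsd-1 fell 2.84-fold in Gyc76C larvae. The other 6 genes did not pass the threshold, an adjusted p under 0.05 in limma over the 11261 probe sets tested. Passing genes were common on these arrays. With each gene read through its brightest probe set, 25.7% of 9259 genes passed, 11.6% higher and 14% lower, so 2 of 8 is close to the background share. The median log2 fold change was 0.21 over the 8 genes and -0.17 over all genes tested, or 0.37 and -0.01 with each array centred on its median.

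**Figure D1:**
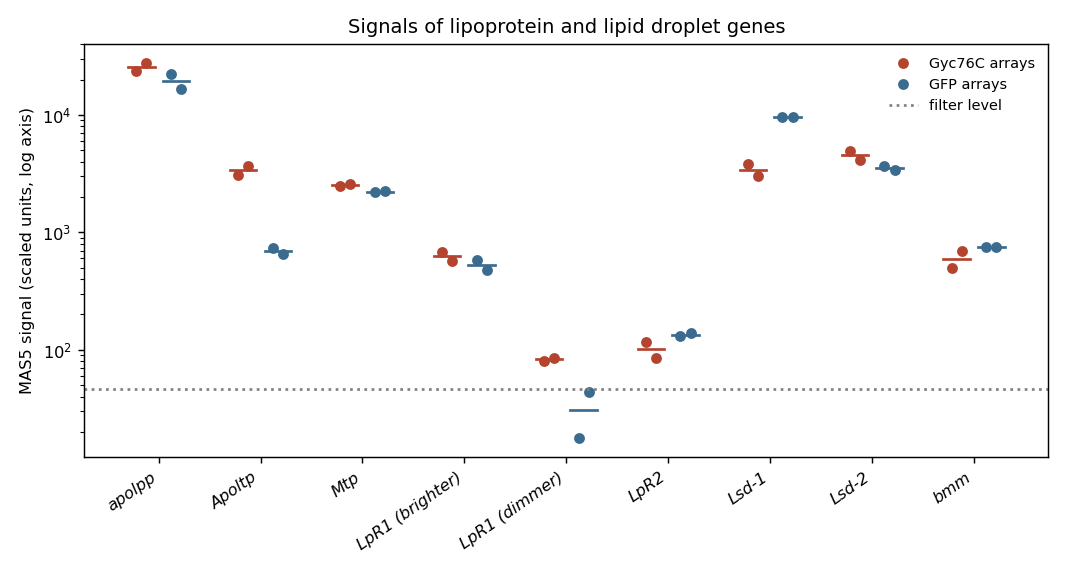
MAS5 signal on a log axis for each of the 9 probe sets, with 1 point per array, Gyc76C left of GFP; short bars are arithmetic means of 2 arrays and the dotted line is the filter level of 46.3. Apoltp and Lsd-1 stand out by the gap between genotypes, and the dimmer LpR1 probe set lies under the filter level on both GFP arrays.

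Apoltp showed the largest change of the 8 genes. Its signals were 3088 and 3668 in Gyc76C larvae, against 739.7 and 648.5 in GFP larvae. Both Gyc76C arrays thus lay far above both GFP arrays. The means were 3378 ± 410 in Gyc76C and 694.1 ± 64.5 in GFP larvae (SD, n = 2 each). The log2 fold change was 2.28 with an SE of 0.15 (limma adjusted p = 0.000339), and its 95% interval ran from 3.79-fold to 6.24-fold. Only 2.64% of all tested probe sets had a log2 fold change of larger size. Apoltp passed under all 13 alternative settings, with log2 fold changes of 2.16 to 2.44.

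The lipophorin gene apolpp was the brightest of the 9 probe sets and differed less. It had signals of 23464 and 27809 in Gyc76C larvae, against 22238 and 16612 in GFP larvae. The higher GFP array lay close to the lower Gyc76C array, although the genotypes did not overlap. The log2 fold change was 0.41 with an SE of 0.19 (limma adjusted p = 0.157), and the 95% interval went from -0.04 to 0.86. After quantile normalization apolpp passed (log2 fold change 0.43, adjusted p = 0.0267), the only one of 13 alternatives in which it did. It was 0.20 without GFP replicate 2 and 0.62 without GFP replicate 1.

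Mtp, the microsomal transfer protein that loads lipid onto these carriers, was close between genotypes. Signals were 2465 and 2597 in Gyc76C larvae and 2197 and 2259 in GFP larvae. The arrays did not overlap, but the step was small, at 0.18 on the log2 scale (SE 0.12, limma adjusted p = 0.309). The 95% interval ran from a fall of 1.08-fold to a rise of 1.39-fold. The ratio of Apoltp to apolpp within an array, which a single scaling factor per array does not alter, was 1.87 log2 units above the GFP mean on each Gyc76C array, while the GFP arrays lay 0.12 to either side of that mean. An exact permutation test (two-sided, 2 arrays against 2) gave p = 0.333, which is the smallest this design allows. This was 1 of 5 such ratios, chosen after the values were seen, and adjustment over them cannot lower that value.

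The receptors LpR1 and LpR2 belong to the low-density lipoprotein receptor family and promote uptake of neutral lipid in fly tissues. In the RefSeq gene table they are neighbours with 0 other protein-coding genes between them. LpR1 was read by 2 probe sets. The brighter had signals of 677.9 and 574.8 in Gyc76C larvae, against 577.7 and 479.6 in GFP larvae. Here the genotypes overlapped, and this was the only one of the 9 probe sets where they did. Its log2 fold change was 0.25 with an SE of 0.17 (limma adjusted p = 0.329).

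The dimmer LpR1 probe set had signals of 81.0 and 85.7 in Gyc76C larvae, against 17.7 and 43.7 in GFP larvae. Both GFP signals were under the filter level of 46.3, so this probe set passed the filter only through the Gyc76C arrays and had to differ. With raised signals it was 1.80-fold higher, which leaves out the spread between arrays. Its value supports nothing further. The measured log2 fold change was 1.58 with an SE of 0.62 (limma adjusted p = 0.108), and it moved between 0.93 without GFP replicate 1 and 2.23 without GFP replicate 2. Neither LpR1 probe set passed, their intervals overlapped (-0.17 to 0.66 for the brighter and 0.10 to 3.07 for the dimmer), and the difference between them was not tested. The sources used here do not place either probe set within the gene.

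LpR2 had signals of 117.4 and 85.7 in Gyc76C larvae, against 130.2 and 138.6 in GFP larvae. Both Gyc76C arrays were lower, yet they differed from each other by more than the nearer one differed from GFP. The log2 fold change was -0.42 with an SE of 0.29 (limma adjusted p = 0.323) and a 95% interval of -1.12 to 0.28. The ratio of LpR1 to LpR2 within an array did not overlap between genotypes, with a mean difference of 0.67 log2 units (exact permutation p = 0.333, n = 2 each).

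**Figure D2:**
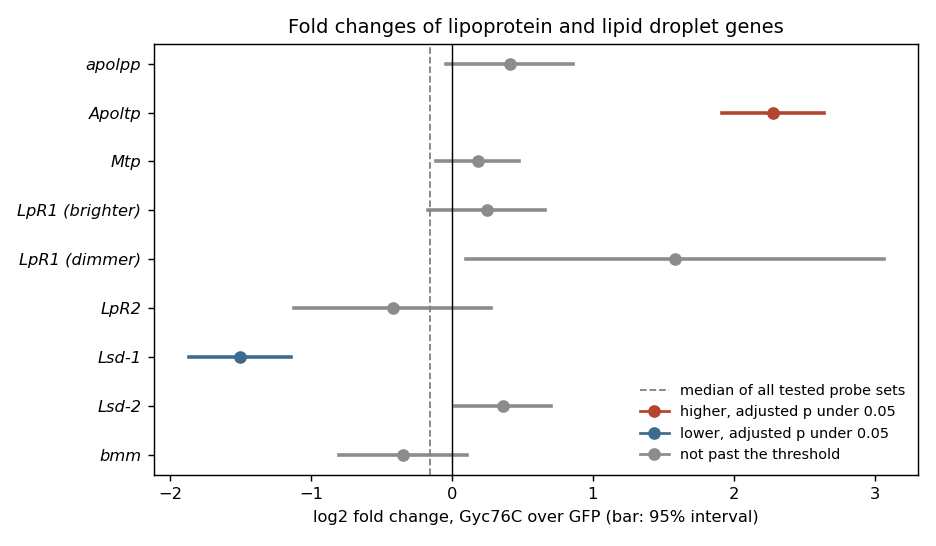
Log2 fold change of Gyc76C over GFP for each of the 9 probe sets, with bars for the 95% interval of limma; the dashed line is the median of all tested probe sets at -0.16. Apoltp at 2.28 and Lsd-1 at -1.51 are coloured as past the threshold, and the dimmer LpR1 probe set has the widest interval.

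Lsd-1 was the gene that fell. Its product is the perilipin that, when phosphorylated, opens the droplet surface to lipases. Signals were 3819 and 3037 in Gyc76C larvae, against 9670.0 and 9671 in GFP larvae. Both Gyc76C arrays lay far below both GFP arrays, which happened to be almost equal. The means were 3428 ± 553 in Gyc76C and 9671 ± 0.757 in GFP larvae (SD, n = 2 each). The log2 fold change was -1.51 with an SE of 0.15 (limma adjusted p = 0.00152), and the 95% interval covered a fall of 2.21-fold to 3.65-fold. In size it was exceeded by 7.15% of tested probe sets. Lsd-1 passed under all 13 alternatives, with log2 fold changes of -1.67 to -1.34.

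Lsd-2 encodes the other fly perilipin, which shields stored fat from breakdown. It had signals of 4919 and 4110 in Gyc76C larvae, against 3641 and 3370 in GFP larvae. Its Gyc76C arrays were the higher ones, by 0.36 on the log2 scale (SE 0.14, limma adjusted p = 0.111). The unadjusted 95% interval of 0.02 to 0.70 lay above 0. The ratio of Lsd-1 to Lsd-2 stood at -1.83 and -1.90 log2 units from the GFP mean on the Gyc76C arrays, while the GFP arrays lay 0.06 to either side of it (exact permutation p = 0.333, n = 2 each).

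The lipase gene bmm encodes the fly counterpart of adipose triglyceride lipase. It had signals of 499.8 and 696.2 in Gyc76C larvae, against 756.8 and 744.8 in GFP larvae. The second Gyc76C array was close to the GFP arrays and the first clearly lower. The log2 fold change was -0.35 with an SE of 0.19 (limma adjusted p = 0.222), -0.11 without Gyc76C replicate 1 and -0.59 without Gyc76C replicate 2. The 95% interval reached from a fall of 1.74-fold to a rise of 1.08-fold. Relative to bmm within an array, Lsd-1 stood at -0.75 and -1.56 log2 units from the GFP mean on the Gyc76C arrays (exact permutation p = 0.333, n = 2 each).

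Over the 8 genes, arrays of the genotypes did not overlap for 7, with 4 higher and 3 lower in Gyc76C larvae. This is a common outcome here, since 69.3% of all tested genes did not overlap. Replicate arrays of the brightest probe sets differed by 0.08 to 0.48 log2 units in Gyc76C and by 0.0002 to 0.42 in GFP larvae, around medians of 0.19 and 0.26 for all tested probe sets.

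The fat body is the main source of lipophorin and the main fat store, so its markers were read beside these genes. Of 8 listed fat body markers, 3 had a probe set of their own, and 2 of them fell, as did 14% of all genes tested. Fbp1, a receptor for storage proteins, had signals of 10611 and 14729 in Gyc76C larvae, against 34606 and 38681 in GFP larvae, a 2.93-fold fall (log2 fold change -1.55, SE 0.19, limma adjusted p = 0.00299). Fbp2, a fat body protein, fell by 0.48 on the log2 scale (adjusted p = 0.0499, past in 3 of 13 alternatives). The storage protein gene Lsp2, named after its values were seen, had -0.37 on the same scale (adjusted p = 0.147). All 3 are bright in both genotypes, and their summed signal was 65385 and 77523 in Gyc76C larvae, against 113421 and 116122 in GFP larvae. Lsp2 had 43613 and 42048 in GFP larvae, near the highest signal on the arrays, 48176. Whether such bright signals understate a fall was not tested.

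The mean log2 fold changes of Lsd-1 and Fbp1 differed by 0.04. Fbp2 at -0.48 and Lsp2 at -0.37 lay further from Lsd-1 at -1.51, and their ratios to Lsd-1 were not computed. On single arrays, the ratio of Lsd-1 to Fbp1 was 0.45 log2 units above the GFP mean on the first Gyc76C array and below it on the second (-0.36, exact permutation p = 1, n = 2 each). The Gyc76C arrays differed by 0.33 log2 units for Lsd-1 and 0.47 for Fbp1. With 2 arrays per genotype the test cannot decide whether these genes change together. Of the other genes, bmm and LpR2 had log2 fold changes below 0, and Apoltp, apolpp, Mtp, LpR1 and Lsd-2 above 0, with only Apoltp past the threshold among these 7. In whole larvae, fewer fat body cells, less RNA per cell and any other difference between the larvae of the genotypes cannot be told apart. The part that a change in fat body RNA has in the Lsd-1 value was not tested.

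**Figure D3:**
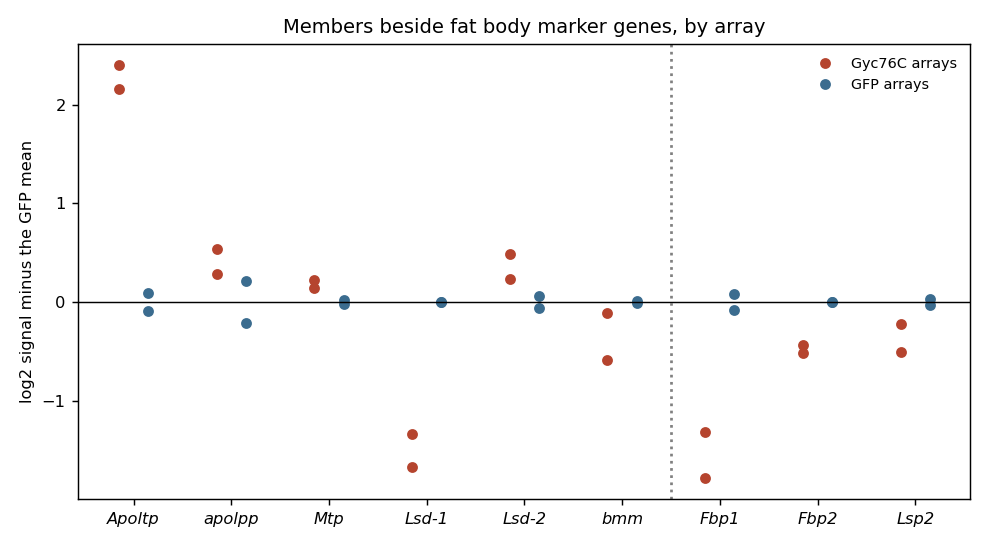
Log2 signal of each array minus the mean of the GFP arrays, for 6 of the genes and, right of the dotted line, the 3 fat body markers; each point is 1 array, Gyc76C left of GFP. Lsd-1 and Fbp1 are lower by similar mean amounts on the Gyc76C arrays, Fbp2 and Lsp2 are lower by less, and Apoltp is higher.

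Markers of other tissues also moved. Beside the counts below, 11.6% of all genes tested passed as higher and 14% as lower. The share of all genes with an unadjusted p under 0.05 was not counted. All 11 salivary gland markers, mostly glue genes, fell, with a summed signal of 26266 and 22242 in Gyc76C larvae against 228254 and 211090 in GFP larvae. Examples are Sgs3 at a log2 fold change of -6.56 and ng3 at -5.56 (limma adjusted p = 0.000175 and 3.77e-05). The smallest fall was that of sage, named after its value was seen, at -1.11 (limma adjusted p = 0.00385). Bright glue genes make up most of the GFP sums. Of 7 oenocyte genes 4 rose and 3 fell, with sums of 7098 and 6608 against 6426 and 6435, and 1 rose and 2 fell without Gyc76C replicate 1. Of 9 midgut markers 2 rose and 2 fell (1 without Gyc76C replicate 1), with sums of 79887 and 91186 against 76780 and 66360. Of 4 muscle markers 2 rose and 0 fell, with sums of 53988 and 58104 against 46772 and 38661. Of 8 blood cell markers 2 rose and 2 fell, with sums of 18687 and 18182 against 15293 and 11571. Most of each sum came from the 2 that rose, PPO1 and PPO2, at log2 fold changes of 0.58 and 0.76. The 2 that fell were crq at -1.38 and eater at -0.85, so the sums do not stand for the whole list. By limma 0 blood cell markers rose without Gyc76C replicate 1 or Gyc76C replicate 2 and 1 rose without GFP replicate 2, while 1 fell without Gyc76C replicate 1; of the 8, 5 had an unadjusted p under 0.05 with all arrays. By limma 0 passed among 3 nervous system, 5 imaginal disc and 2 Malpighian tubule markers, where 1, 1 and 0 had an unadjusted p under 0.05. Their part in the values of the lipid genes was not tested.

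Genes outside the core set describe the rest of lipid carriage and breakdown. Their counts stand beside a background of 25.7% of 9259 genes past the threshold, 11.6% higher and 14% lower. The median log2 fold change of all genes tested was -0.17. Among 9 tested genes of other lipid carriers, 1 rose and 1 fell, with a median log2 fold change of -0.45. The gene that rose was Yp3, a yolk protein gene related to lipases, with signals of 3744 and 1195 in Gyc76C larvae against 582.3 and 294.4 in GFP larvae. Its log2 fold change was 2.35 with an SE of 0.54 (limma adjusted p = 0.0239), and it lost the call without a mean trend and with a robust prior variance. Without Gyc76C replicate 1 the log2 fold change of Yp3 was 1.53. Fatp3, of the fatty acid transport protein family, fell 2.65-fold, with 992.6 and 824.9 in Gyc76C larvae against 1763 and 3274 in GFP larvae (adjusted p = 0.0156, and 0.0739 without a mean trend). Without GFP replicate 1 the count that fell was 3.

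Relatives of the lipophorin receptors had 2 tested genes. Neither passed, although 1 had an unadjusted p under 0.05 by limma. This was Cubn, at -0.57 on the log2 scale (adjusted p = 0.073), while cue had 0.46 (adjusted p = 0.265, and 0.00366 without GFP replicate 2).

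Among 10 other lipid droplet genes 2 fell and 0 rose, where 14% of all genes tested fell and 11.6% rose. The median log2 fold change was -0.34 (-0.18 once arrays were centred). Jabba, a droplet protein known for holding histones on embryonic droplets, had signals of 657.9 and 672.1 in Gyc76C larvae against 950.8 and 1151 in GFP larvae. It fell 1.57-fold (limma adjusted p = 0.0248). Rab18, a small GTPase found on droplets, fell by 0.48 on the log2 scale (adjusted p = 0.034). Both calls ended with centred arrays, without a mean trend, and without either Gyc76C replicate 1 or Gyc76C replicate 2. Of the COPI coat, which in fly cells takes part in delivering lipase to droplets, 0 of 6 tested subunits passed in limma and 1 had an unadjusted p under 0.05. Its log2 fold changes ran from -0.16 for gammaCOP to 0.47, and alphaCOP had 0.12.

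**Figure D4:**
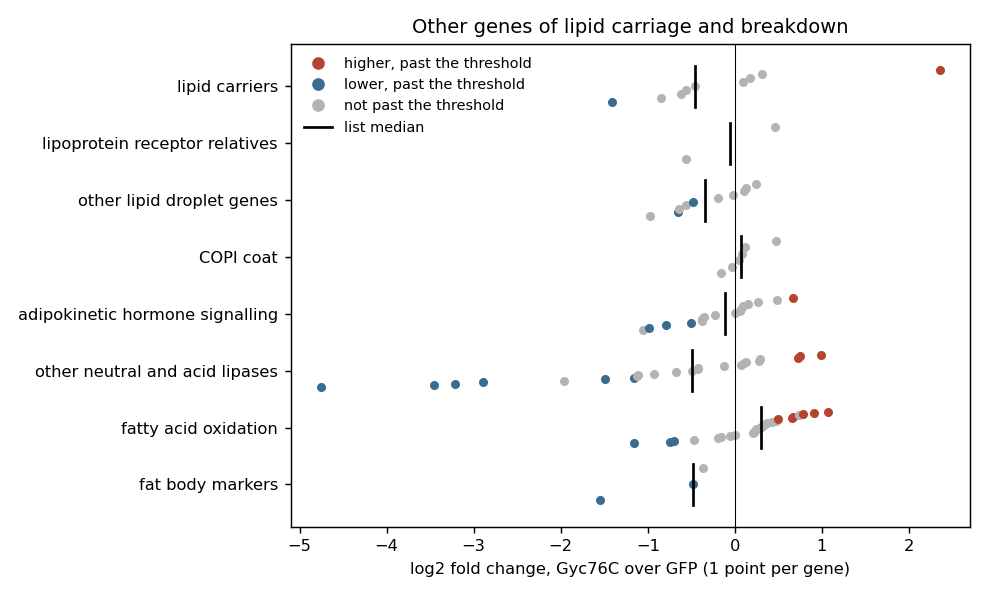
Log2 fold change of Gyc76C over GFP for each tested gene of 8 lists, 1 point per gene, coloured where it passed the threshold, with black ticks at list medians. The lipases CG8093 and CG6271, dim on both Gyc76C arrays, are drawn at their measured values, which are uncertain; the oxidation genes have a median of 0.30.

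Adipokinetic hormone is the insect hormone that calls fat out of storage, acting through a receptor on fat body cells, cyclic AMP and calcium. Of 16 tested genes of this pathway 1 rose and 3 fell, with a median log2 fold change of -0.11. This is close to the background, where 25.7% of all genes tested passed. Galphaq, a G protein subunit, had signals of 254.3 and 250.5 in Gyc76C larvae against 547.1 and 458.8 in GFP larvae. It fell 1.98-fold (limma adjusted p = 0.00984, and 0.0526 without Gyc76C replicate 1). The transcription factor gene foxo fell 1.73-fold (limma adjusted p = 0.043), and the calcium sensor gene Stim fell 1.42-fold (adjusted p = 0.0339). The cyclic AMP phosphodiesterase gene dnc rose by 0.67 (adjusted p = 0.035). These last calls were less stable, with foxo past in 5, Stim in 8 and dnc in 8 of 13 alternatives. Without Gyc76C replicate 1 there were 0 calls in either direction, and without Gyc76C replicate 2 there was 1.

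The hormone and its receptor did not pass. Akh had signals of 99.6 and 126.2 in Gyc76C larvae against 88.5 and 72.6 in GFP larvae (limma adjusted p = 0.307). AkhR had 680.9 and 702.0 in Gyc76C larvae against 862.6 and 762.2 in GFP larvae (adjusted p = 0.279). Akh and AkhR were named after their values were seen.

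Other lipase genes changed in both directions. Of 23 tested, 6 fell and 3 rose, where 14% of all genes tested fell and 11.6% rose. The median log2 fold change was -0.49 (-0.34 once arrays were centred), and 15 more were too dim to be tested. CG6283, a member of the neutral lipase family, had signals of 944.3 and 662.3 in Gyc76C larvae against 7842 and 6917 in GFP larvae, a 9.31-fold fall (SE of the log2 fold change 0.19, limma adjusted p = 0.000258). CG6271 and CG8093 were dim on both Gyc76C arrays and passed the filter only through the GFP arrays, so they had to differ. With raised signals they were 7.08-fold and 10.3-fold lower, which leaves out the spread between arrays. They are counted among the 6 and enter the median, but support nothing further. Lip3, named after its values were seen, did not pass the threshold but also passed the filter only through the GFP arrays. It had 20.3 and 40.6 in Gyc76C larvae against 62.8 and 62.3 in GFP larvae. Genes that passed the filter this way could only be lower, which pulls the median down. CG17191 fell 7.44-fold (adjusted p = 0.00146).

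The secreted gut lipase gene mag, named with CG6296 after their values were seen, fell 2.81-fold. It had signals of 5376 and 5645 in Gyc76C larvae against 18965 and 12613 in GFP larvae (limma adjusted p = 0.00441) and passed in all 13 alternatives. CG6296 went the other way, with 12868 and 14355 in Gyc76C larvae against 8091 and 5782 in GFP larvae (1.99-fold higher, adjusted p = 0.0124, and 0.0663 without a mean trend). Leaving out Gyc76C replicate 1 or Gyc76C replicate 2 left 1 lipase gene that rose, while 5 to 7 fell across the alternatives.

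Fatty acids released from droplets are burned by mitochondrial and peroxisomal oxidation. Of 26 tested oxidation genes 6 rose and 3 fell, where 11.6% of all genes tested rose and 14% fell. Their median log2 fold change was 0.30 (0.45 once arrays were centred). The isomerase-family genes CG4592 and CG4594 rose 2.10-fold and 1.88-fold (limma adjusted p = 0.0101 and 0.00764), and the acyl-CoA synthetase gene Acsl rose 1.73-fold (adjusted p = 0.0164). The acyl-CoA synthetase gene pdgy had signals of 1948 and 2449 in Gyc76C larvae against 4633 and 5101 in GFP larvae, a 2.23-fold fall (adjusted p = 0.00412). The pdgy call held in all 13 alternatives, whereas CG4592 lost its call without a mean trend (0.0597), CG4594 without Gyc76C replicate 1 (0.076) and Acsl without either Gyc76C array or a mean trend.

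The carnitine shuttle brings fatty acids into mitochondria. Its carnitine palmitoyltransferase gene whd had signals of 1534 and 1735 in Gyc76C larvae against 2594 and 2892 in GFP larvae, a 1.68-fold fall (limma adjusted p = 0.0113). The carrier gene colt rose 1.59-fold, with 3073 and 3173 in Gyc76C larvae against 2016 and 1917 in GFP larvae (adjusted p = 0.0113). The second palmitoyltransferase gene, CPT2, had 875.3 and 914.6 in Gyc76C larvae against 752.9 and 754.8 in GFP larvae (log2 fold change 0.25, adjusted p = 0.218). These 3 genes were named after seeing their values, and whd lost its call without Gyc76C replicate 1, as colt did without either Gyc76C array, and both without a mean trend. Leaving out either Gyc76C replicate 1 or Gyc76C replicate 2 left 2 oxidation genes that rose, against 12 without GFP replicate 1 and 1 without a mean trend.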

How the data were processed

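The authors deposited 1 linear intensity per probe set and array. MAS5, of unstated version, made these values according to the submitters' processing notes. No genome build was named. The trimmed mean of each array (2% off each end) was 500.0, so the authors had scaled the arrays. MAS5 gives a signal also to undetected probe sets, and detection calls were not used here. The number of arrays limits the precision, with a median SE of 0.21 on the log2 scale.

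Genes were named from the platform annotation where a probe set had 1 symbol (13646 probe sets). The 183 control probe sets were left out, and 11261 probe sets with a mean signal at or above the 40th percentile (46.3) were tested. Log2 signals without a pseudocount were compared with limma 3.58.1 in R 4.3.3 (lmFit, eBayes with a mean trend, two-sided, Benjamini-Hochberg over all probe sets tested), with 2 residual and 4.64 prior degrees of freedom. The fit was also run on simulated data in which far fewer probe sets changed than passed here. That run does not test the fit under the conditions of these arrays. Titles gave the genotype of each sample. Means ± SD are arithmetic and folds are ratios of geometric means. Where a fold is given with raised signals, signals under 46.3 were raised to it.

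The genes and lists were chosen with earlier results of these data known. All 8 measured members are named with every probe set. From each list up to 4 genes past the threshold with the largest changes are named, or the 2 brightest where none passed; other genes are said to be named after their values were seen, and not every gene the rule allows is described. Lists are described by counts and medians, with no set test. Alternatives were other scalings, filters, treatments of dim signals and variance models, a replicate block, and leaving out each array.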

Additional observations from a re-analysis of the deposited data

How the results depend on the processing

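Apoltp and Lsd-1 passed under all 13 alternatives, and 1 gene rose and 1 fell in each, except that 2 rose after quantile normalization, where apolpp was added. No gene of the set changed direction. Over all probe sets, 1271 rose and 1500 fell. Centring arrays on their median left 991 lower, so that 62.7% of calls were higher against 45.9% as scaled by the authors, and 54.8% after quantile normalization. Centring moves every log2 fold change by the same amount, 0.16. Without a mean trend in the variance 612 rose and 629 fell; the cause was not tested. Leaving out 1 array gave 575 to 1588 higher and 629 to 1762 lower, with 1 member higher and 1 lower each time. Replicate numbers were shared by the genotypes, but nothing in the labels says that they pair the samples, and deviations of same-numbered arrays correlated at 0.0445. With the replicate block 1370 rose and 1731 fell, Apoltp had an adjusted p of 3.11e-05 and Lsd-1 of 0.000363. Of 36 genes outside the set that the rule names and that passed, 16 passed under every alternative that tested them, 20 lost the call in at least 1, and 0 changed direction. With 2 arrays a genotype, a member such as Mtp or bmm that changed by less than about its interval could not be told from 0, and the value of the dimmer LpR1 probe set is limited by GFP signals under 46.3.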
